A study of Mus musculus with 12 samples.

Results

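The transcription factor p53 stops the cell cycle largely through genes that it switches on, and 10 such genes are described here in mouse embryonic forelimb and in bone marrow cultures with and without Impdh2. The genes were Cdkn1a, Ccng1, Ptprv, Gtse1, Psrc1, Btg2, Plk2, Plk3, Gadd45a and Sesn1. They were taken by symbol from the count tables, as 10 of 51826 gene identifiers in the forelimb and of 55401 in the cultures. All 10 passed the filter on low counts in both tissues. The set was put together with the forelimb comparison of these data already known, so the forelimb values below are a description and carry no test.

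The series held 12 RNA sequencing libraries in 6 groups of 2. Forelimbs came from embryos at E12.5, either wild type (WT) or Prx-cKO, in which Impdh2 is deleted in limb mesenchymal progenitors by a Prx-driven knockout. Other forelimb cells, such as blood, vessel and surface cells, are not targeted and keep the gene. The cultures were grown from the marrow of WT mice and of LysM-cKO mice, in which Impdh2 is deleted in the myeloid lineage. All culture groups shared a growth phase of 3 days in L929 cell supernatant, equal to 20 ng/ml of the macrophage growth factor M-CSF, and the protocol then gives stimulation with 40 ng/ml of RANKL, the cytokine that turns macrophages into osteoclasts. Culture titles read R40D3 or R0D3, which no label explains, and 1 treatment is given for all 8 culture samples, so R40D3 and R0D3 serve as names only. The age and sex of the marrow donors and the control alleles of the WT groups are not given in the sources used here. Nothing in the labels says that libraries of a group came from separate animals, so p-values measure only the spread between these libraries, which may be technical.

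Impdh2 encodes the main enzyme of the rate-limiting step of guanine nucleotide synthesis. Shortage of nucleotides, like DNA damage and faulty ribosome assembly, is known to stabilise p53. Stabilised p53 binds DNA as a tetramer and raises the transcription of Cdkn1a, whose protein blocks cyclin-dependent kinases, and of further genes that act at the start of S phase, at mitosis, on growth signalling and on p53 itself. Many of these genes also respond to signals that do not pass through p53, so their level is not a measure of p53 alone.

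The genome holds p53 recognition sequences near some of these genes, and the promoter stretches that match are shown for the members that hold one in a promoter window. RefSeq windows of 300 bases, from 250 before to 50 after a transcription start (GRCm38.p6), were found for 9 of the 10 members, as 13 windows; Ptprv had none. Both strands were searched for the p53 consensus decamer, the unit that p53 contacts as a pair, and 5 of the 13 windows held it, against 8.36% of all 32851 windows. The paired core, CATG and CATG with 6 bases between them, was in 1 of the 13 windows, that of Cdkn1a, and in 0.712% of all windows. Capitals mark the decamer matches and, in Cdkn1a, the core that overlaps the second of them. The stretches are written 5′ to 3′ along the strand of the gene.
Cdkn1a, chr17:29090886-29090964, plus strand, -93 to -15 from the start: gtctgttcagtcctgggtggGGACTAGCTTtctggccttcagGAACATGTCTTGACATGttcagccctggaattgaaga
Ccng1, chr11:40755442-40755491, minus strand, -205 to -156: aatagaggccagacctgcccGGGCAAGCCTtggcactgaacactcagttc
Gadd45a, chr6:67037418-67037467, minus strand, -60 to -11: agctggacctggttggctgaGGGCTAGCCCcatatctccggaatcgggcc
Sesn1, chr10:41887246-41887295, plus strand, -193 to -144: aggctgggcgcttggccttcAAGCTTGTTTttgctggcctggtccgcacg
The fifth match lay 10 bases after a start of Gtse1. The Sesn1 match lay in the window of a start inside the gene, chr10:41887189-41887488. The Sesn1 window near the first base of the gene, chr10:41810324-41810623, held no decamer. The windows of Psrc1, Btg2, Plk2 and Plk3 held no decamer, which says only that these letters are not in these windows. The CCAAT box was in 9 of the 13 windows against 37.4% of all windows, and TATAAA was in none of the 13 against 13.6%. A search for TTTGAA, the core of the element through which repressive complexes act on cell-cycle genes, found it in none of the 13 windows against 17.9% of all. No binding was measured in these samples, and the matches are a description of letters only.

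Impdh2 itself was checked first. Levels are given in CPM, read counts scaled to the TMM-corrected size of each library. In the forelimb, Impdh2 measured 260 and 272 CPM in the WT libraries and 170 and 199 CPM in the Prx-cKO libraries. The Prx-cKO libraries thus lay lower but kept most of the WT level. In the cultures Impdh2 fell in LysM-cKO by 1.73 on the log2 scale at R40D3 (SE 0.15, from 26.7 to 8.05 CPM; adjusted p 0.0386, edgeR) and by 1.81 at R0D3 (SE 0.16, from 25.3 to 7.2 CPM; adjusted p 0.0323). Forelimb libraries held 28892215 to 69466572 counts and culture libraries 16009146 to 19221865. The labelled cell types showed their markers: limb mesenchyme markers summed to 1280 to 1930 CPM in the forelimb, and osteoclast markers to 13300 to 39000 CPM in R40D3 cultures but to 325 to 471 CPM in R0D3 cultures, although these too are labelled osteoclast. Calcr, a defining osteoclast marker, had no count in any R0D3 library.

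In Prx-cKO forelimbs, 8 of the 10 members lay above both WT libraries in both Prx-cKO libraries. The differences were wide for Ptprv, Ccng1 and Cdkn1a and under 1 on the log2 scale for Gtse1, Psrc1, Plk3, Btg2 and Plk2. Gadd45a overlapped between the groups, and Sesn1 lay lower in Prx-cKO. Among all 19987 genes tested, 22.2% lay higher without overlap in Prx-cKO and 21% lay lower. The members' median log2 difference was 0.80, and that of all genes was -0.03. No gene of the 19987 passed an adjusted p of 0.05 in edgeR (0% called), while 2095 (10.5%) had an unadjusted p under 0.05. DESeq2 called 390 genes. Because the members were chosen on this contrast, nothing is read from the share.

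**Figure D1:**
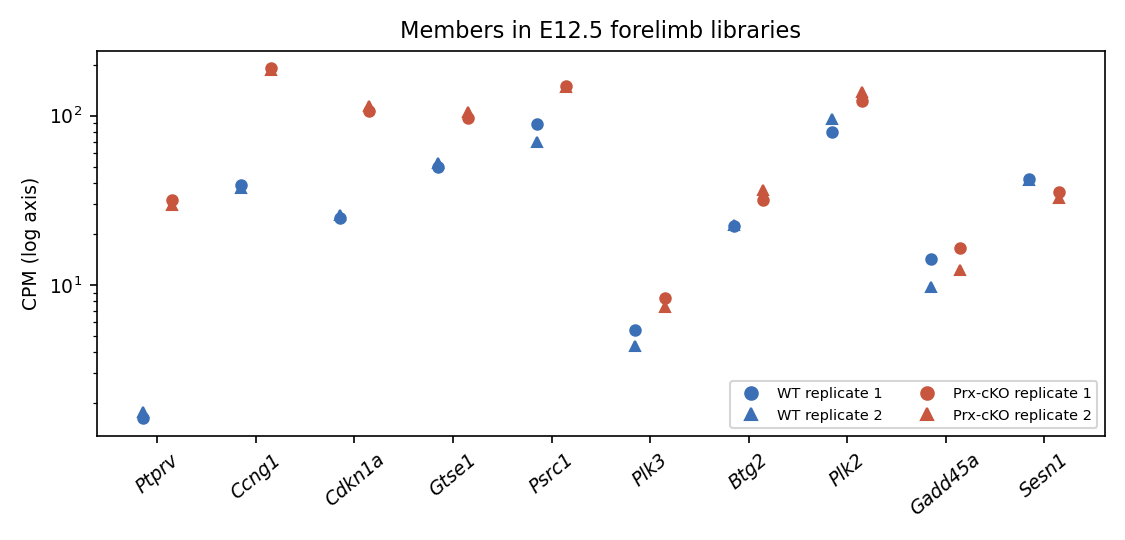
Level of each member in the 4 forelimb libraries, in CPM on a log axis, with 1 point per library (WT and Prx-cKO, n = 2 each). Ptprv goes from 1.63 and 1.78 CPM in WT to 31.5 and 29.5 CPM in Prx-cKO, while the Gadd45a libraries interleave and those of Sesn1 lie lower in Prx-cKO.

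Cdkn1a, Ptprv and Ccng1 had the 3 largest differences. Cdkn1a, the inhibitor of cyclin-dependent kinases through which p53 holds cells before S phase, measured 24.8 and 25.9 CPM in the WT libraries and 107 and 114 CPM in the Prx-cKO libraries. The Prx-cKO mean was 4.36 times the WT mean, a log2 difference of 2.12 (SE 0.15). Cdkn1a (ENSMUSG00000023067) lies on chr17 at 29090976 to 29100727 on the plus strand of GRCm38, and 7.7% of its exonic bases overlap AC167363.2 on the opposite strand. Ptprv encodes a receptor-type tyrosine phosphatase known to be needed for full p53-dependent arrest before S phase. It measured 1.63 and 1.78 CPM in the WT libraries and 31.5 and 29.5 CPM in the Prx-cKO libraries, a 17.8-fold difference and a log2 difference of 4.15 (SE 0.23). The WT values rest on 69 and 128 counts, so Ptprv was low but measured in WT. Ptprv (ENSMUSG00000097993, chr1, 135108497 to 135132594, minus strand) is annotated as a processed transcript, and 4.9% of its exonic bases overlap the antisense gene Gm10535.

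Ccng1 encodes cyclin G1, which brings a phosphatase to Mdm2 and so takes part in the return of p53 to its resting level. It measured 38.7 and 37.5 CPM in the WT libraries and 191 and 186 CPM in the Prx-cKO libraries, 4.94-fold apart (log2 difference 2.31, SE 0.14). Both groups were tight, with SDs of 0.886 CPM in WT and 3.14 CPM in Prx-cKO. Ccng1 (ENSMUSG00000020326) lies on chr11 at 40748552 to 40755311 on the minus strand and overlaps no other annotated exon.

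Gtse1 and Psrc1 encode microtubule-associated proteins that are also cell-cycle genes, with levels that are high in dividing cells. Gtse1, which also moves p53 out of the nucleus in G2, measured 49.9 and 52.3 CPM in the WT libraries and 96.3 and 105 CPM in the Prx-cKO libraries (log2 difference 0.98, SE 0.15). Psrc1, a spindle protein, measured 89.4 and 70.1 CPM in the WT libraries and 150 and 148 CPM in the Prx-cKO libraries (0.90, SE 0.17). Neither gene overlapped between the groups. Gtse1 (ENSMUSG00000022385) lies on chr15 at 85859745 to 85876573 and Psrc1 (ENSMUSG00000068744) on chr3 at 108383839 to 108388231, both on the plus strand. Markers of S phase and mitosis moved less: the 27 genes of that list summed to 4720 and 5500 CPM in WT and to 5690 and 6150 CPM in Prx-cKO, with a median log2 difference of 0.27. Of its most abundant genes, the replication helicase Mcm5 stood at 485 against 345 CPM in WT (0.49), Top2a at 517 against 537 CPM (-0.05) and the proliferation marker Mki67 at 354 against 454 CPM (-0.36), while the list as a whole lay mostly higher. Of its 27 genes, 21 lay above 0, with 19 higher and 1 lower without overlap, against 22.2% and 21% of all genes. The part of this shift in the values of Gtse1 and Psrc1 was not tested.

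Btg2, Plk2 and Plk3 are early response genes as well as p53 targets. Btg2, an antiproliferative factor that recruits the mRNA deadenylation machinery, measured 22.3 and 22.5 CPM in the WT libraries and 31.6 and 36.5 CPM in the Prx-cKO libraries (log2 difference 0.61, SE 0.18). Plk2, a kinase of centriole duplication and stress response, measured 79.6 and 96 CPM in the WT libraries and 122 and 137 CPM in the Prx-cKO libraries (0.56, SE 0.17). Plk3, a related stress kinase, measured 5.39 and 4.33 CPM in the WT libraries and 8.35 and 7.36 CPM in the Prx-cKO libraries (0.70, SE 0.28). All 3 lay higher without overlap, with folds of 1.48 to 1.62. Btg2 (ENSMUSG00000020423) lies on chr1 at 134075170 to 134079120 on the minus strand. Plk2 (ENSMUSG00000021701) lies on chr13 at 110395046 to 110400844 on the plus strand. Plk3 (ENSMUSG00000028680) lies on chr4 at 117128655 to 117133963 on the minus strand, where 3.3% of its exonic bases overlap Tctex1d4. The 13 genes of the early response list, which holds none of the members, summed to 249 and 272 CPM in WT and to 273 and 371 CPM in Prx-cKO, with a median log2 difference of 0.47. Its most abundant genes, Ier2, Ccn1 and Jun, differed by 0.47, 0.29 and -0.09, and the part of these genes in the values of Btg2, Plk2 and Plk3 was not tested.

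Gadd45a and Sesn1 did not follow. Gadd45a, a stress sensor that binds cell-cycle kinases and the replication clamp, measured 14.3 and 9.77 CPM in the WT libraries and 16.6 and 12.2 CPM in the Prx-cKO libraries, so that the groups overlapped (log2 difference 0.26, SE 0.30). Its count is also the least certain, since 19.1% of its exonic bases overlap E230016M11Rik on the opposite strand and the use of strand is not given in the sources used here. Sesn1, which holds back growth signalling through mTORC1 when amino acids are short, measured 42.2 and 41.5 CPM in the WT libraries and 35.2 and 32.6 CPM in the Prx-cKO libraries (-0.30, SE 0.16). Both Prx-cKO libraries lay below both WT libraries, opposite to the 8 that lay higher. Gadd45a (ENSMUSG00000036390) lies on chr6 at 67035096 to 67037457 on the minus strand and Sesn1 (ENSMUSG00000038332) on chr10 at 41809935 to 41908424 on the plus strand.

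Per kilobase of exon, the order of the members' levels changed between the forelimb groups. In WT, Psrc1 led at 23.7 CPM per kb (SD 4.06), with Plk2 at 19.5 (SD 2.58) and Gtse1 at 18.6 (SD 0.615), and these neighbours lay within their spread. Ccng1 at 10.8 and Sesn1 at 10.5 came next, Cdkn1a was seventh at 7.13, and Ptprv was last at 0.244 CPM per kb. In Prx-cKO, Ccng1 led at 53.6 CPM per kb (SD 0.894), ahead of Psrc1 at 44.4 (SD 0.466) and Gtse1 at 36.6 (SD 2.17). Cdkn1a reached 31.1 CPM per kb (SD 1.45) beside Plk2 at 28.9 (SD 2.31), a pair within its spread. Ptprv, at 4.37 CPM per kb, passed Plk3 at 3.1 and stayed below the other 8.

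The rest of the p53 pathway was described from lists written for this purpose with earlier results of these data known. Their counts are thus a description only. Of 30 other p53 targets, 20 lay higher without overlap in Prx-cKO and 3 lay lower, against 22.2% and 21% of all genes. Their median log2 difference was 0.71. Bax, which opens the mitochondrial membrane in cell death, stood at 210 CPM against 87 CPM in WT (1.28). Rps27l, a ribosomal protein paralog, stood at 221 against 130 CPM (0.77), and the sulfatase gene Sulf2 at 288 against 356 CPM (-0.31). Among these targets the difference was as large as 4.53 for Eda2r, a death receptor, singled out after its values were seen: it measured 0.898 and 1.91 CPM in the WT libraries and 30.2 and 37.2 CPM in the Prx-cKO libraries. The p53 gene Trp53 measured 197 and 201 CPM in the WT libraries and 269 and 267 CPM in the Prx-cKO libraries (0.43). Mdm2, which marks p53 for degradation and is a target itself, overlapped at 63.4 and 54.5 against 64.8 and 47.2 CPM (-0.07), and it was named after its values were seen. The inhibitor Mdm4 stood at 182 against 209 CPM (-0.20) and the ubiquitin ligase gene Cop1 at 93.5 against 100 CPM (-0.10). Of the 8 genes for p53 and its regulators, 1 lay higher without overlap and 1 lower.

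**Figure D2:**
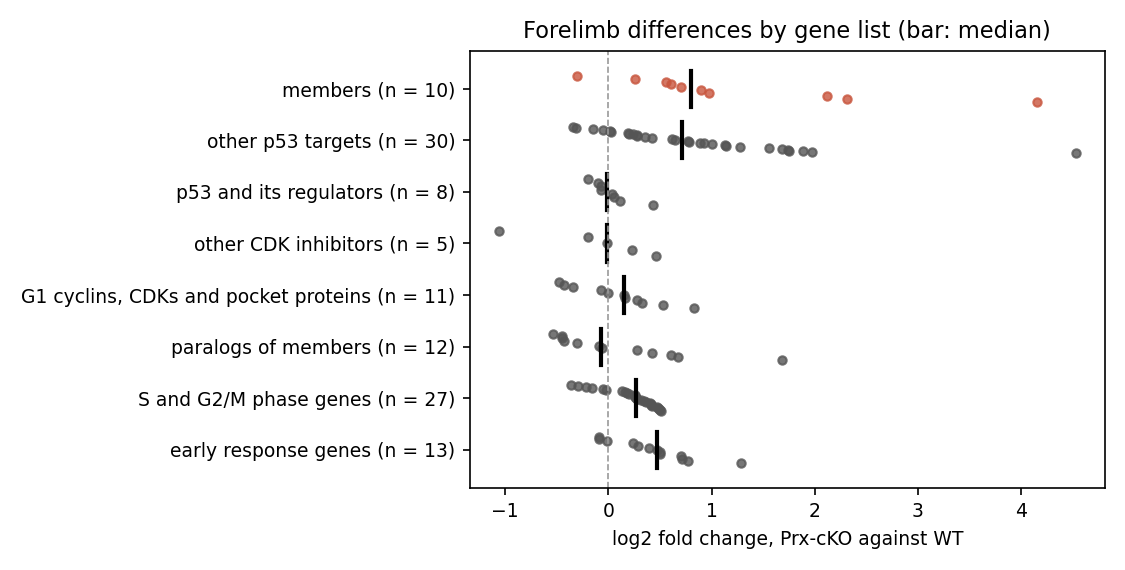
Log2 difference of each gene between Prx-cKO and WT forelimbs by gene list, 1 point per gene. Members and other p53 targets have medians of 0.80 and 0.71, while the lists of p53 regulators and other CDK inhibitors have medians near 0. Early response genes have a median of 0.47, S and G2/M genes of 0.27, G1 genes of 0.15 and paralogs of -0.07.

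Other brakes of the cell cycle did not share the wide difference of Cdkn1a. Of 5 other inhibitors of cyclin-dependent kinases that were tested, 2 lay higher and 1 lower without overlap, with a median of -0.01. For this and the next 2 lists, the shares of all genes were 22.2% higher and 21% lower. Cdkn1b, the close relative of Cdkn1a, measured 42.5 and 50.8 CPM in the WT libraries and 22.4 and 22.2 CPM in the Prx-cKO libraries (-1.06), the opposite side from Cdkn1a. Cdkn1c stood at 573 and 554 against 711 and 613 CPM (0.23), and Cdkn2d at 19.1 against 19.3 CPM as group means (-0.01). Of 11 cyclins, kinases and pocket proteins of G1, 4 lay higher and 2 lower, with Cdk4 at 759 against 627 CPM (0.28), Ccnd2 at 372 against 470 CPM (-0.34) and Ccnd1 at 274 against 288 CPM (-0.07). Of 12 paralogs of the members, 5 lay higher and 5 lower: Plk1 stood at 176 against 132 CPM (0.42), Sesn3 at 108 against 158 CPM (-0.54) and Btg1 at 93.4 against 127 CPM (-0.45). Plk1 and Sesn3 lay on the same side as the members of their families, and Btg1 on the other side from Btg2. Sesn2, a p53 target as well as a paralog and named after its values were seen, measured 15.5 and 18.6 CPM in the WT libraries and 45.9 and 63.1 CPM in the Prx-cKO libraries (1.68), while Sesn1 lay lower.

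Summed cell type markers also differed between the forelimb genotypes. Limb mesenchyme markers summed to 1770 to 1930 CPM in WT and to 1280 to 1390 CPM in Prx-cKO, and all 8 chondrogenic markers were lower (893 to 1010 against 307 to 386 CPM). Skeletal muscle markers summed to 328 to 334 CPM in WT and to 444 to 951 CPM in Prx-cKO, and endothelial markers to 118 to 124 against 160 to 165 CPM. Myeloid markers summed to 29 to 30 CPM against 49.7 to 56.9 CPM. Erythroid markers, at 2680 to 3920 against 2830 to 3650 CPM, overlapped. In bulk tissue, fewer cells of a type and less RNA per cell cannot be told apart, and the part of these differences in the members' values was not tested.

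The cultures gave comparisons of the same genes outside the forelimb contrast, although the members were chosen with earlier results of these data known. Per kilobase, Cdkn1a led in all 4 culture groups, from 55.6 CPM per kb (SD 3.39) in WT R40D3 to 108 (SD 19) in LysM-cKO R0D3. Ccng1 and Sesn1 were next in every group, at 47.8 to 70.2 CPM per kb. In WT R40D3, Cdkn1a and Ccng1, at 55.6 and 51.9 CPM per kb, lay within their spread. Ptprv was last in every group, at 0.0856 to 0.119 CPM per kb, on 8 to 18 counts per library. Gtse1 and Psrc1, near the top in forelimb, were at 2.52 to 7.33 CPM per kb. Forelimb and culture levels come from tables counted and normalised separately, so only the order within each is given.

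**Figure D3:**
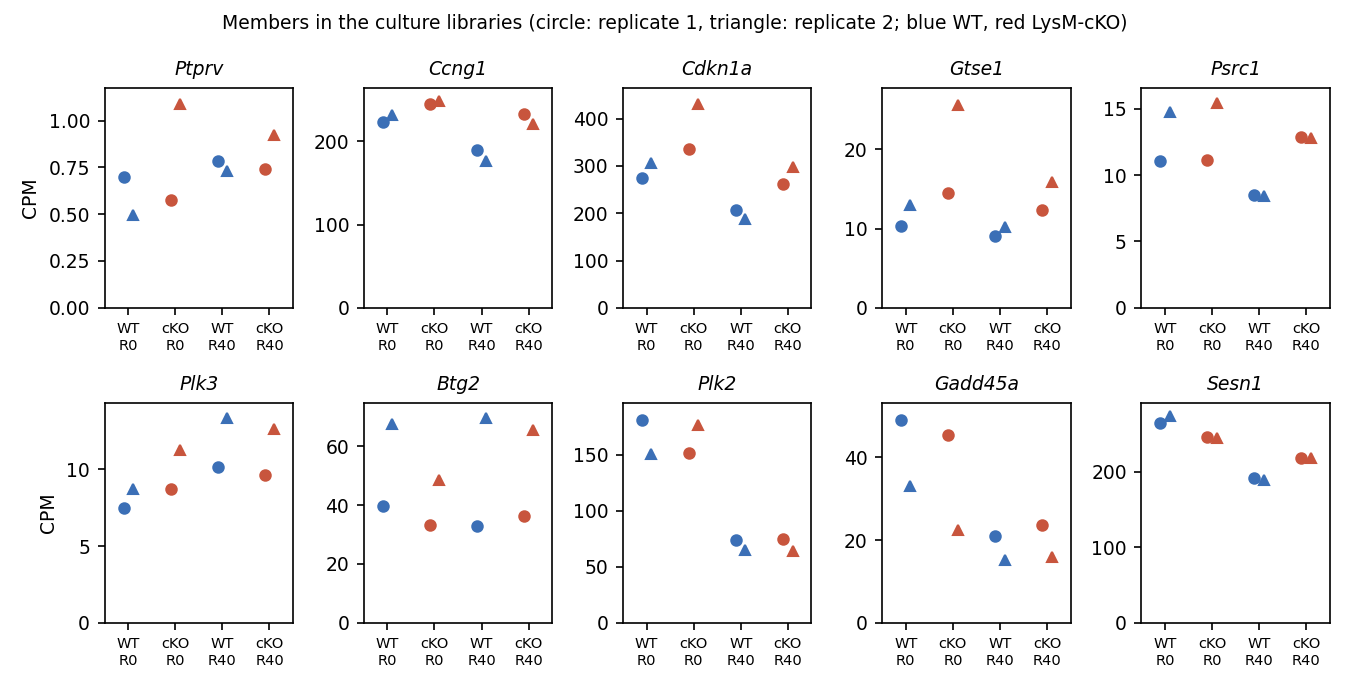
Level of each member in the 8 culture libraries, in CPM on a linear axis from 0 with a scale of its own for each gene, by genotype (blue WT, red LysM-cKO) and culture title, with circles for replicate 1 and triangles for replicate 2. Plk2 lies at 64.1 to 74.7 CPM in all R40D3 libraries and at 151 to 181 CPM in all R0D3 libraries.

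At R40D3, no member passed the test between LysM-cKO and WT cultures, where edgeR called 2 of 14030 genes (0.0143%), both lower. Without adjustment, 4 members and 1048 genes (7.47%) had a p under 0.05, and DESeq2 called 23 genes and no member. With the replicate number as a block, edgeR called 30 genes and no member. The adjusted p was then 0.101 for Cdkn1a and 0.107 for Ccng1, and 5 members and 2600 genes had an unadjusted p under 0.05. Cdkn1a measured 206 and 189 CPM in the WT libraries and 263 and 298 CPM in the LysM-cKO libraries, without overlap (log2 difference 0.51, SE 0.14; adjusted p 0.648, edgeR). Ccng1 measured 189 and 176 CPM in the WT libraries and 233 and 220 CPM in the LysM-cKO libraries (0.31, SE 0.08; adjusted p 0.648). Gtse1, Psrc1 and Sesn1 also lay higher without overlap, by 0.54 (SE 0.29), 0.60 (SE 0.21) and 0.20 (SE 0.07). So 5 of the 10 members lay higher without overlap and none lower, while 19.7% of all genes lay higher and 18.9% lower. The members' median difference was 0.16 against -0.01 for all genes. Differences in Btg2, Plk2, Plk3, Gadd45a and Ptprv were between -0.08 and 0.13, with standard errors of 0.14 to 0.44.

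At R0D3, no member passed the test either, and edgeR called 2 of 14030 genes (0.0143%). Without adjustment 2 members and 620 genes (4.42%) had a p under 0.05, and DESeq2 called 7 genes and no member. With the replicate block, edgeR called 3 genes and no member, and 4 members and 1476 genes had an unadjusted p under 0.05. Cdkn1a measured 274 and 307 CPM in the WT libraries and 336 and 432 CPM in the LysM-cKO libraries (log2 difference 0.40, SE 0.14; adjusted p 0.997, edgeR). Gtse1 measured 10.3 and 12.9 CPM in the WT libraries and 14.5 and 25.6 CPM in the LysM-cKO libraries (0.79, SE 0.28; adjusted p 0.997). Ccng1 and Plk3 lay higher without overlap as well, by 0.12 (SE 0.08) and 0.31 (SE 0.23), and Sesn1 lay lower by -0.13 (SE 0.07). Without replicate 2 of LysM-cKO R0D3 the difference was 0.21 for Cdkn1a and 0.32 for Gtse1. With all libraries, 4 members lay higher and 1 lower without overlap, against 17.5% and 14.8% of all genes. Cdkn1a, Ccng1 and Gtse1 lay higher without overlap in both culture conditions, and the tests in the cultures did not call them. Of all genes, 19.7% lay so at R40D3 and 17.5% at R0D3, and the share in both was not computed. These 3 genes also lay higher in the forelimb, but the members were chosen on that contrast, so nothing is read from that.

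Summed markers of division and of other cells also differed between the culture genotypes. The 27 S and G2/M genes summed to 653 and 1450 CPM in LysM-cKO R0D3 against 484 and 685 in WT R0D3, and to 475 and 807 CPM in LysM-cKO R40D3 against 416 and 412 in WT R40D3. Gtse1 was highest, at 25.6 CPM, in the library where that sum was highest, replicate 2 of LysM-cKO R0D3. None of the 27 genes was called between genotypes in either condition, but nearly all lay above 0. At R40D3, 26 did, with a median log2 difference of 0.75, and 17 lay higher and 0 lower without overlap. At R0D3 all 27 did, with a median of 0.93, and 5 lay higher and 0 lower without overlap. Of all genes, 19.7% lay higher without overlap at R40D3 and 17.5% at R0D3. Stromal fibroblast markers summed to 507 and 599 CPM in the replicate 2 libraries of LysM-cKO and to 1440 to 1870 CPM in the other 6. Myeloid markers summed to 17900 to 23900 CPM in LysM-cKO and to 26300 to 42900 CPM in WT, a gap carried by Lyz2, the gene after which the LysM driver is named (11500 against 19600 CPM at R40D3 and 16100 against 32600 CPM at R0D3). The other 6 myeloid genes went both ways, and the list's median difference was 0.11 at R40D3 and -0.02 at R0D3. Osteoclast markers at R40D3 summed to 13300 and 25000 CPM in LysM-cKO against 26500 and 39000 CPM in WT, with all 11 genes below 0 and a median of -0.65. Of these 11 genes, 8 lay lower without overlap, against 18.9% of all genes, and none was called. Neutrophil markers summed to 171 and 77.2 CPM in LysM-cKO R40D3 against 478 and 112 CPM in WT R40D3, and to 189 and 101 CPM against 372 and 147 CPM at R0D3, with all 6 tested genes below 0 in both. Their part in the members' values was not tested.

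Between R40D3 and R0D3 cultures of WT cells, 4 members fell and none rose in the fit without a replicate block. With the block, 7 members passed, 1 of them higher, as given below. Plk2 went from 181 and 151 CPM at R0D3 to 74.2 and 65.4 CPM at R40D3 (log2 difference -1.25, SE 0.14; adjusted p 0.00161, edgeR). Sesn1 went from 264 and 273 CPM to 192 and 189 CPM (-0.50, SE 0.07; adjusted p 0.00483). Cdkn1a went from 274 and 307 CPM to 206 and 189 CPM (-0.56, SE 0.14; adjusted p 0.0325). Ccng1 went from 223 and 231 CPM to 189 and 176 CPM (-0.32, SE 0.08; adjusted p 0.035). In each of these, both R40D3 libraries lay below both R0D3 libraries. Of all 14030 genes, 5.52% fell and 11.4% rose (16.9% in all). Without overlap, 7 members lay lower and 2 higher, against 29.2% and 32.9% of all genes, and the members' median was -0.41 against 0.01 for all genes. The calls of Cdkn1a and Ccng1 were lost when any 1 of the 4 WT libraries was left out, with adjusted p of 0.0726 to 0.188 and 0.0573 to 0.189, and that of Sesn1 without replicate 2 of WT R0D3 (0.0503).

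Gadd45a had nearly as wide a difference in WT as Plk2 but a wider spread: 49 and 33.1 CPM at R0D3 and 20.9 and 15.3 CPM at R40D3 (-1.18, SE 0.37; adjusted p 0.0686, edgeR). Psrc1 stood at 11.1 and 14.7 CPM at R0D3 and at 8.52 and 8.43 CPM at R40D3 (-0.60, SE 0.21; adjusted p 0.0938). Plk3 differed the other way, with 7.46 and 8.71 CPM at R0D3 and 10.1 and 13.4 CPM at R40D3 (0.54, SE 0.23; adjusted p 0.159). These 3 genes did not overlap between conditions, while 29.2% of all genes lay lower and 32.9% higher without overlap. With the replicate number as a block, 7 members passed in WT: the 4 above, Gadd45a (-1.18, adjusted p 0.000371), Psrc1 (-0.59, adjusted p 0.0314) and, as a rise, Plk3 (0.53, adjusted p 0.0203). The block also raised the genes called from 2367 to 3977 of all 14030. Btg2, Gtse1 and Ptprv passed in neither fit.

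In LysM-cKO cultures only Plk2 passed among the members, where edgeR called 3.15% of the 14030 genes as lower and 6.99% as higher (10.1% in all). Without overlap, 4 members lay lower and none higher, against 22.5% and 27.3% of all genes. Plk2 fell from 151 and 176 CPM at R0D3 to 74.7 and 64.1 CPM at R40D3 (-1.24, SE 0.14; adjusted p 0.00268). Cdkn1a stood at 336 and 432 CPM at R0D3 and at 263 and 298 CPM at R40D3 (-0.46, SE 0.14; adjusted p 0.0859). It passed with the replicate block (-0.45, adjusted p 0.0171), as did Gadd45a (-0.74, adjusted p 0.00607), which made 3 members called and 2983 genes in all. Sesn1 stood at 246 and 244 CPM at R0D3 and at 218 and 218 CPM at R40D3 (-0.17, SE 0.07; adjusted p 0.218). The members' median was -0.15 against 0.01 for all genes.

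**Figure D4:**
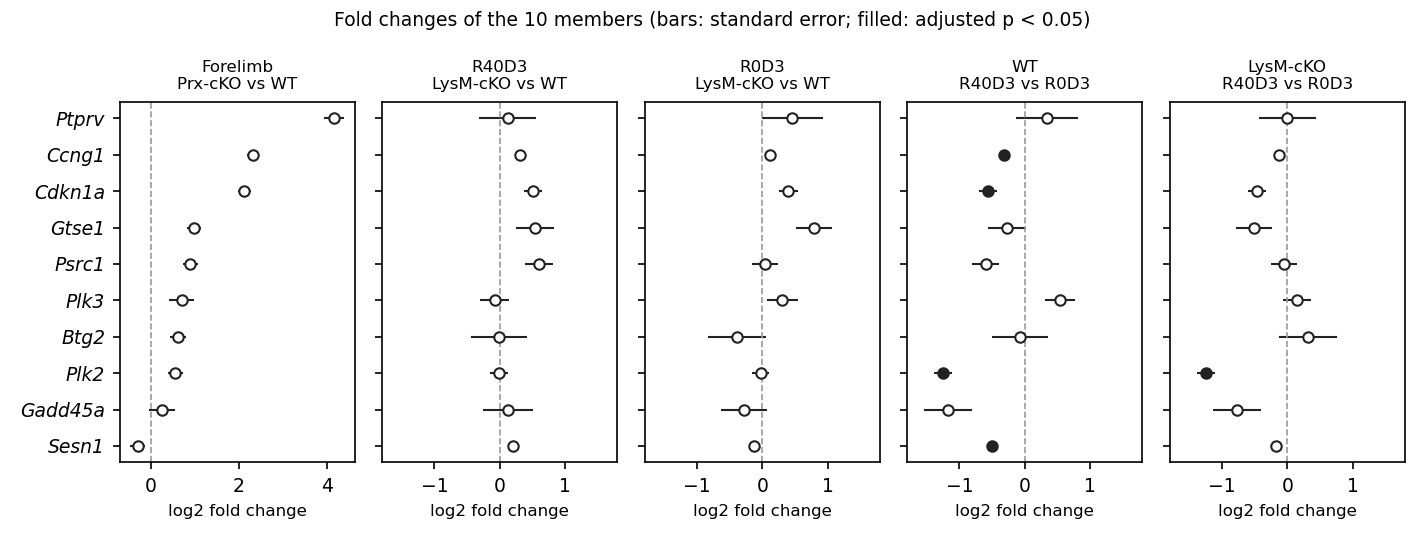
Log2 difference of each member in the 5 comparisons of groups, with bars of 1 standard error; filled points have an adjusted p under 0.05 (edgeR) and the forelimb panel has its own scale. Plk2 is filled in both comparisons of R40D3 with R0D3, at -1.25 and -1.24, and no point is filled in the comparisons of genotypes.

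The change from R0D3 to R40D3 was not shown to differ between genotypes for any member. The interaction called 0 of 14030 genes in edgeR (0%), in DESeq2 and with the replicate block. An unadjusted p under 0.05 was found for 248 genes (1.77%) and 1 member in edgeR, and for 110 genes and 1 member in DESeq2. With the block it was found for 841 genes and 3 members. Sesn1, with a difference of -0.50 in WT and -0.17 in LysM-cKO, had an interaction of 0.33 (SE 0.10, unadjusted p 0.0149, adjusted p 1, edgeR). For Plk2 the interaction was 0.01 (SE 0.19) and for Cdkn1a it was 0.10 (SE 0.20), each smaller than its standard error. The WT and LysM-cKO changes are each measured against libraries of their own.

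Btg2, Gtse1, Plk3 and Gadd45a each differed between the replicate numbers in the same direction in all 4 culture groups. The share of all genes that did so was not computed. Btg2 stood at 32.8 to 39.8 CPM in the 4 replicate 1 libraries and at 48.4 to 69.5 CPM in the 4 replicate 2 libraries, without overlap. Gtse1 and Plk3 were higher in replicate 2 than in replicate 1 of each of the 4 groups. In LysM-cKO R0D3, Gtse1 stood at 14.5 and 25.6 CPM and Plk3 at 8.74 and 11.3 CPM. Gadd45a was lower in replicate 2 than in replicate 1 of each of the 4 groups, as in LysM-cKO R0D3, with 45.4 and 22.4 CPM. The early response list, which shares the fast induction of Btg2, summed to 569 to 834 CPM in replicate 1 and to 1130 to 1260 CPM in replicate 2. The replicate numbers were deposited as separate tables, so each number is also a set of its own. Within the replicate numbers, Plk2 differed between R40D3 and R0D3 by -1.29 and -1.21 in WT and by -1.02 and -1.46 in LysM-cKO, and Cdkn1a by -0.41 and -0.70 in WT. Between genotypes at R40D3, Cdkn1a differed by 0.35 and 0.66 within the numbers, and Ccng1 by 0.30 and 0.32.

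Other p53 targets went both ways between R40D3 and R0D3. Of the 30, 6 rose and 2 fell in WT cultures, against 11.4% and 5.52% of all genes. In LysM-cKO cultures 2 of the 30 rose, a share near the 6.99% of all genes. Pml, a nuclear body protein, rose by 0.63 in WT (adjusted p 0.00343, edgeR) and by 0.61 in LysM-cKO (adjusted p 0.00662). Ephx1, an epoxide hydrolase, fell by 0.51 in WT (adjusted p 0.0217), and Zmat3, an RNA-binding growth regulator, by 0.39 (adjusted p 0.0272). Perp, a junction protein, rose in LysM-cKO from 1 and 0 counts at R0D3 to 26 and 43 counts at R40D3 (adjusted p 0.0188). Of the paralogs, Ccng2 and Gadd45b fell in WT (-0.54 and -0.80) and Gadd45b in LysM-cKO (-0.85), while Gadd45a itself did not pass without the block. Of the early response genes, Atf3 and Egr2 fell in both genotypes (Atf3 by 1.67 in WT and by 1.89 in LysM-cKO, Egr2 by 1.44 and by 1.85), and Jun fell in LysM-cKO (by 0.62). None of the S and G2/M genes, the CDK inhibitors, the G1 genes or the p53 regulators was called in these comparisons, though all 27 S and G2/M genes lay below 0 in both.

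The profile most like that of Cdkn1a was sought among 8839 genes, as the root mean square difference of log2 CPM, centred within each tissue, over the 12 libraries. Because the forelimb contrast chose Cdkn1a, this is a description. The nearest non-members were Inka2 (0.181), Phlda3 (0.209) and Tnfaip1 (0.266). Inka2, an inhibitor of a PAK kinase, stood at 3.73 and 4.56 CPM in WT forelimb and at 19.9 and 19 CPM in Prx-cKO. Phlda3, which opposes Akt at the membrane, stood at 28.5 and 25.7 CPM in WT forelimb and at 85.3 and 115 CPM in Prx-cKO. Tnfaip1 stood at 29.2 and 43.9 against 105 and 135 CPM. Of the members, Ccng1 was nearest at 0.186, then Gtse1 at 0.371 and Psrc1 at 0.39, while Sesn1 was farthest at 0.733. Ptprv, under 5 CPM in the cultures, was not compared.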

How the data were processed

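The authors deposited raw read counts per Ensembl gene, with the forelimbs in 1 table and the cultures split into tables by replicate number. Per the submitters' processing notes, FastQC 0.11.2, Trimmomatic 0.36, HISAT2 2.1.0 and DESeq2 1.12.4 were used with GRCm38. Per the labels' protocols, TRIzol extraction was followed by an mRNA library kit. The counting tool, annotation and strand setting are not given in the sources used here, so overlapping genes may share reads. Symbols were found for 99.6% (forelimb) and 99.5% (culture) of identifiers, and positions and exonic lengths come from GENCODE on GRCm38.

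Counts were tested as deposited with edgeR 4.0.16 (R 4.3.3): filterByExpr, TMM, quasi-likelihood F test with legacy = FALSE, two-sided, Benjamini-Hochberg over all genes, with 0.05 as the threshold of the adjusted p. The 4 forelimb libraries (19987 genes) were fitted alone and the 8 culture libraries (14030 genes) together. SEs are the absolute log2 fold change over the square root of F. The fits of the forelimb comparison and of WT R40D3 against R0D3 were run on simulated counts with known changes. That check covered the size and sign of the log2 differences, not the calls. Replicates differed beyond counting noise in all 6 groups.

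The members and all lists were chosen with earlier results of these data known. Named were all members, Impdh2 and, per list, the called genes (the 3 of highest mean CPM where over 5 were called or, in the forelimb, none was), plus the 3 genes most like Cdkn1a. Same-numbered culture libraries deviated together, with r of 0.411 to 0.625 over 14030 genes in all 6 pairs of groups, so their numbers were taken to pair them. The alternatives were DESeq2 size factors, library size alone, no filter on low counts, legacy = TRUE, DESeq2 1.42.0, the replicate block, only the 4 compared libraries, and leaving out each library.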

Additional observations from a re-analysis of the deposited data

How the results depend on the processing

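The number of members called was within 1.5 times its main value under most alternatives, with these exceptions. In the forelimb, DESeq2 called 5 members beside 390 of all 17274 genes with an adjusted p. The members were chosen on this contrast, so nothing is read from their calls. Calls of members and of all genes also rose without either WT library, but not without either Prx-cKO library. The lone library is then assumed to vary like the other group, so these calls are not counted here. In WT R40D3 against R0D3, the replicate block called 7 members, and leaving out 1 library gave 1 to 2 (1 without WT R0D3 replicate 2) and 689 to 1699 genes. In LysM-cKO R40D3 against R0D3, DESeq2 called 2 members, adding Cdkn1a (adjusted p 0.0236), and the replicate block 3. Over all genes the latter comparison gave 533 calls from only its 4 libraries and 399 to 1317 with 1 library left out. Genotype comparisons called 23 genes in DESeq2 and 30 with the block at R40D3, 7 and 3 at R0D3, and none when 1 library was left out. The block changed no other member's call. The same-number correlation in the forelimb was 0.228 for its 1 pair, so the numbers there were not taken to pair libraries, and the block called 0 genes. Library size alone moved the median of all forelimb genes from -0.03 to -0.13 and that of the members from 0.80 to 0.70.

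Changes of sign were found only for differences that no test called, and the cause was not tested. For LysM-cKO against WT at R40D3, Btg2 became 0.031 with library size alone, 0.0068 with no filter and 0.019 with the replicate block, and Plk2 0.032, 0.0031 and, from only the 4 compared libraries, 0.00054. For LysM-cKO R40D3 against R0D3, Ptprv became 0.032 with library size alone, 0.0046 with the replicate block and 0.0084 from only the 4 libraries. Leaving out 1 library gave these ranges at R40D3 between genotypes: Btg2 -0.52 to 0.65, Plk3 -0.30 to 0.14, Gadd45a -0.16 to 0.37, Plk2 -0.099 to 0.082, Ptprv -0.054 to 0.30. At R0D3 they were Plk2 -0.15 to 0.12, Psrc1 -0.21 to 0.26, Gadd45a -0.90 to 0.14, Ptprv -0.067 to 0.83, Btg2 -0.73 to 0.035. Between conditions they were Btg2 -0.75 to 0.36 in WT, and in LysM-cKO Ptprv -0.41 to 0.52, Plk3 -0.091 to 0.35, Btg2 -0.21 to 0.69, Psrc1 -0.28 to 0.21. In the interaction they were Plk2 -0.13 to 0.14, Btg2 -0.10 to 1.06, Cdkn1a -0.037 to 0.29, Ptprv -0.71 to 0.18, Gtse1 -0.57 to 0.22, Gadd45a -0.0092 to 1.03. Without a change of sign, differences not called in the main fit also moved by over 1.5 times when 1 library was left out. Between genotypes, Gtse1 went from 0.34 to 0.74 at R40D3 and Plk3 from 0.11 to 0.46 at R0D3. Between conditions in WT, Plk3 went from 0.29 to 0.70 and Psrc1 from -0.80 to -0.38. In LysM-cKO, Cdkn1a went from -0.63 to -0.26, Gadd45a from -1.19 to -0.18 and Gtse1 from -0.87 to -0.048. Of these, the replicate block called Plk3 and Psrc1 in WT and Cdkn1a and Gadd45a in LysM-cKO. Ptprv in the cultures rests on 8 to 18 counts per library, which limits its precision.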
